A study of Homo sapiens with 12 samples.

Results

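The 10 genes described here act in or answer to bone morphogenetic protein (BMP) signalling: ID1, ID2, ID3, ID4, NOG, BMP4, SMAD6, SMAD7, SMAD9 and BAMBI. They were picked by name from the 32010 genes of the deposited count table, and all 10 passed the filter on low counts that left 19424 genes. The choice used measured values, since it named a higher ID3 and a lower NOG in cells with TAF5 lacking exon 8. The libraries formed 4 groups of 3 and came from HEK293 Flp-In, a cell line of human embryonic kidney origin that carries a landing site for transgenes in its genome. In the ΔE8 group endogenous TAF5 was depleted by siRNA and an siRNA-resistant TAF5 without exon 8 was induced with doxycycline. In the FL group the same siRNA was followed by induction of siRNA-resistant full-length TAF5. The siTAF5 group received the TAF5 siRNA with no rescue, and the siNT group a non-targeting siRNA. Doxycycline was given 24 h after transfection and left for 48 h, and the treatment label of all 4 groups includes it. The comparison of ΔE8 with FL asks whether exon 8 of TAF5 bears on gene expression. As models the groups have limits: the depletion rests on 1 siRNA, the labels give different doxycycline doses for ΔE8 and FL, and the line in which the groups without a transgene were grown is not stated.

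TAF5, a subunit of the promoter-binding complex TFIID, checked the labels, and no library went against its label. Counts per gene do not show exon 8, so the check could not tell ΔE8 from FL libraries by that exon. Its level was 87.5 to 88.9 CPM, the unit of counts scaled to library size, in ΔE8 libraries, 103 to 107 CPM in FL libraries, 6.13 to 7.35 CPM in siTAF5 libraries and 39.2 to 40.5 CPM in siNT libraries. TAF5 RNA thus exceeded its siNT level in either rescue, and its CPM were higher in FL than in ΔE8 libraries. CPM are not scaled to transcript length, and the ΔE8 transcript lacks exon 8. How much of that gap the missing exon makes was not tested. In the differences between ΔE8 and FL, the parts of TAF5 level, doxycycline dose and exon 8 cannot be told apart. Library totals ran from 41.8 to 62.5 M estimated counts. All 7 markers of the HEK293 lineage averaged above 1 CPM over the 12 libraries, though NEFM had 0.902 CPM in its lowest library. Their summed levels were 2129 to 2196 CPM in ΔE8 and 1843 to 1902 CPM in FL. In siTAF5 they were 1984 to 2075 CPM and in siNT 1803 to 1875 CPM. Of the 6 fibroblast markers 1 was above 1 CPM, COL1A1, and the list's sum was 7.17 to 7.75 CPM in ΔE8, 7.01 to 8.27 CPM in FL, 8.06 to 8.95 CPM in siTAF5 and 13.9 to 14.1 CPM in siNT. DCN, a defining fibroblast gene, reached at most 0.0352 CPM. Of the 5 blood cell markers only HBA1 exceeded 1 CPM on average, and PTPRC, which defines white blood cells, reached at most 0.0528 CPM; the list summed to 6.61 to 7.73 CPM in ΔE8, 9.68 to 10.2 CPM in FL, 6.42 to 7.16 CPM in siTAF5 and 9.31 to 11.04 CPM in siNT. None of the 4 endothelial markers averaged above 1 CPM, and their sum stayed at or under 0.591 CPM. The part of COL1A1, HBA1 and the HEK293 markers in the results was not tested.

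BMPs are secreted ligands that bring together type I and type II receptor kinases, which phosphorylate the receptor-regulated SMADs. These join SMAD4, enter the nucleus and raise a set of targets in which the ID genes are the best known. ID proteins are helix-loop-helix proteins without a DNA-binding region; they bind E proteins and keep them off DNA. The pathway also raises its own brakes: SMAD6 and SMAD7 block receptors and SMADs inside the cell, BAMBI is a receptor-like protein without a kinase domain, and secreted antagonists such as noggin, the product of NOG, hold BMPs away from their receptors.

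TFIID binds core promoters, some of which hold a TATA box, so the 100 bases before a RefSeq start of each ID gene are printed here. They are from RefSeq (GRCh38.p14), 5′ to 3′ on the strand of the gene, with TATAAA or TATAA in capitals. A promoter of 9 of the 10 genes was found in that table; the tenth gene is NOG.
ID1: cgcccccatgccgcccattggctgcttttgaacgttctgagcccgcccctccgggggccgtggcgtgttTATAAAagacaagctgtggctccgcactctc
ID2: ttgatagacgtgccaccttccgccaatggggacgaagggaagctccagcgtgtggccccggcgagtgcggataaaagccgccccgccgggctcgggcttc
ID3: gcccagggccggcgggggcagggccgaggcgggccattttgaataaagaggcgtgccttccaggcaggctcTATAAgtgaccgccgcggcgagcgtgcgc
ID4: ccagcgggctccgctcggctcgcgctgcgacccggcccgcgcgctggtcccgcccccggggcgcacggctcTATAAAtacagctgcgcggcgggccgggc
The stretches are chr20:31605189-31605288 on the plus strand for ID1, chr2:8681956-8682055 on the plus strand for ID2, chr1:23559502-23559601 on the minus strand for ID3 and chr6:19837270-19837369 on the plus strand for ID4. The ID2 stretch lies inside the span counted for that gene, which begins at 8678845, and no promoter at that outer start was searched. The last bases of the ID1 stretch also lie inside the counted span, which begins at 31605283. TATAAA lay on the gene strand in ID1, with its first base at -31 from the start, and in ID4, at -29. ID3 held the shorter TATAA at -29, and in the ID2 stretch neither was found. Among the other genes, TATAAA lay on the gene strand at -35 in 1 of 3 SMAD7 promoters, and TATAA on the other strand at -28 in 1 of 3 BMP4 promoters. Both strands of windows of 300 bases (250 before to 50 after a start) were searched, where each match to the longer motif is also one to the shorter. Of 35116 RefSeq promoters 11.5% held TATAAA, and 20.4% held TATAA; on the gene strand with the first base between -40 and -20 the shares were 2.3% and 3.91%. TATAA was added to the search after the sequences had been read. Of 2 motifs linked to BMP-responsive SMADs, GGCGCC was in 19.2% of all promoters in that of BAMBI and in 1 of 3 of BMP4. The short CAGAC was in 45.3% of all promoters, in those of ID3, ID4, SMAD9 and BAMBI, in 2 of 3 of SMAD7 and in 3 of 3 of BMP4. These matches describe letters in a window and show no binding.

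**Figure D1:**
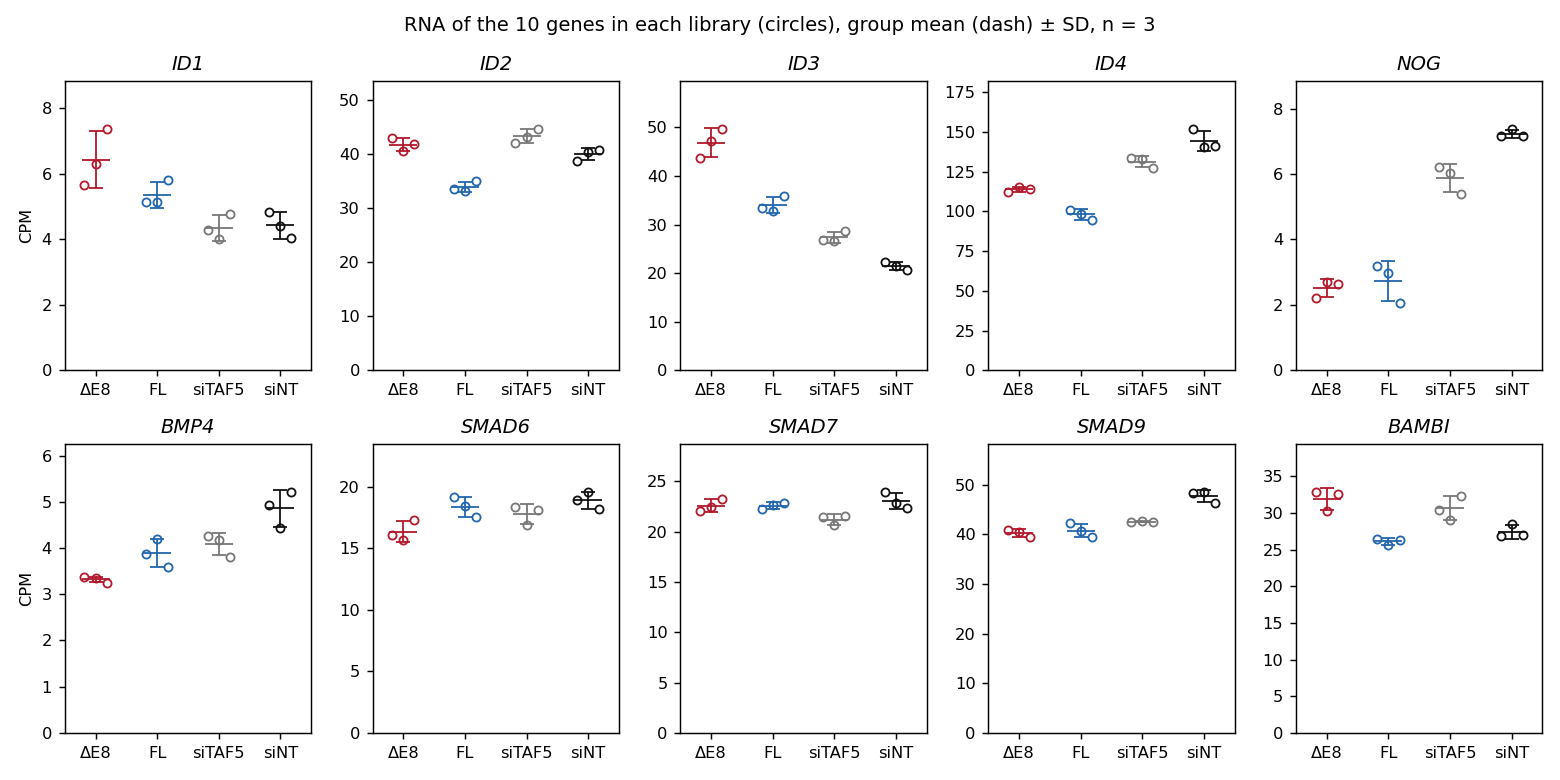
RNA of the 10 genes in CPM (vertical axes, each from 0) in the 3 libraries of each group; circles are libraries, dashes are group means and bars are SD. ID3 steps down across ΔE8, FL, siTAF5 and siNT with no overlap, while NOG is low in ΔE8 and in FL, at 2.04 to 3.19 CPM, and higher in siTAF5 and siNT.

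ID3 and NOG were named in the choice of genes for their change with ΔE8, against a group that the choice does not state, so their differences are described with no test in every comparison. With TAF5 depleted and not replaced, 6 of the other 8 genes passed an adjusted p of 0.05: ID2 and BAMBI were higher in siTAF5 than in siNT, and ID4, BMP4, SMAD7 and SMAD9 were lower. ID1 and SMAD6 did not pass. Of all 19424 genes tested, 49.7% passed in this comparison, 24.7% higher and 25% lower. The median log2 difference of the 10 genes was -0.10, against 0.00 for all genes. Without siTAF5 replicate 3 or without siNT replicate 1 the count was 3; ID4 and SMAD9 passed under all 13 alternatives, leaving out each library among them. Tests were edgeR's quasi-likelihood test with Benjamini-Hochberg adjustment over all genes tested. Nothing in the labels says that the libraries of a group came from separate cultures, so these p-values measure the spread between samples, which may be technical. In bulk RNA, fewer cells of a kind and less RNA per cell cannot be told apart.

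With full-length TAF5 expressed, the genes moved in different directions. Of the 8 genes tested, ID1 was higher and ID2, ID4 and BAMBI were lower in FL than in siTAF5, that is 4 of 8 called, beside 48.8% of all genes (24.4% higher and as many lower). Set against siNT, ID1 was higher in FL and ID2, ID4, SMAD9 and BMP4 were lower, that is 5 of 8, beside 54.6% of all genes (27.8% higher, 26.8% lower). The ID1 call was lost under several alternatives in each of these comparisons, as given with its values.

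The values with ΔE8 took part in choosing the genes, so none of the 10 is tested there. In ΔE8 against FL, 6 of the 10 genes showed no overlap between libraries: ID2, ID3, ID4 and BAMBI were higher in ΔE8, and SMAD6 and BMP4 lower. Of all genes tested, 45.7% had no overlap in this comparison, 21.8% higher and 23.9% lower. In ΔE8 against siTAF5, 7 of the 10 had no overlap, 3 higher and 4 lower, beside 49.9% of all genes, 24.4% higher and 25.5% lower. In ΔE8 against siNT 8 of the 10 had none, 3 higher and 5 lower, beside 65.7% of all genes, 32.7% higher and 33% lower. The libraries of NOG overlapped between ΔE8 and FL: its low level was shared by both rescued groups. The 6 comparisons share libraries; a pair without a shared library is siTAF5 against siNT with ΔE8 against FL.

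**Figure D2:**
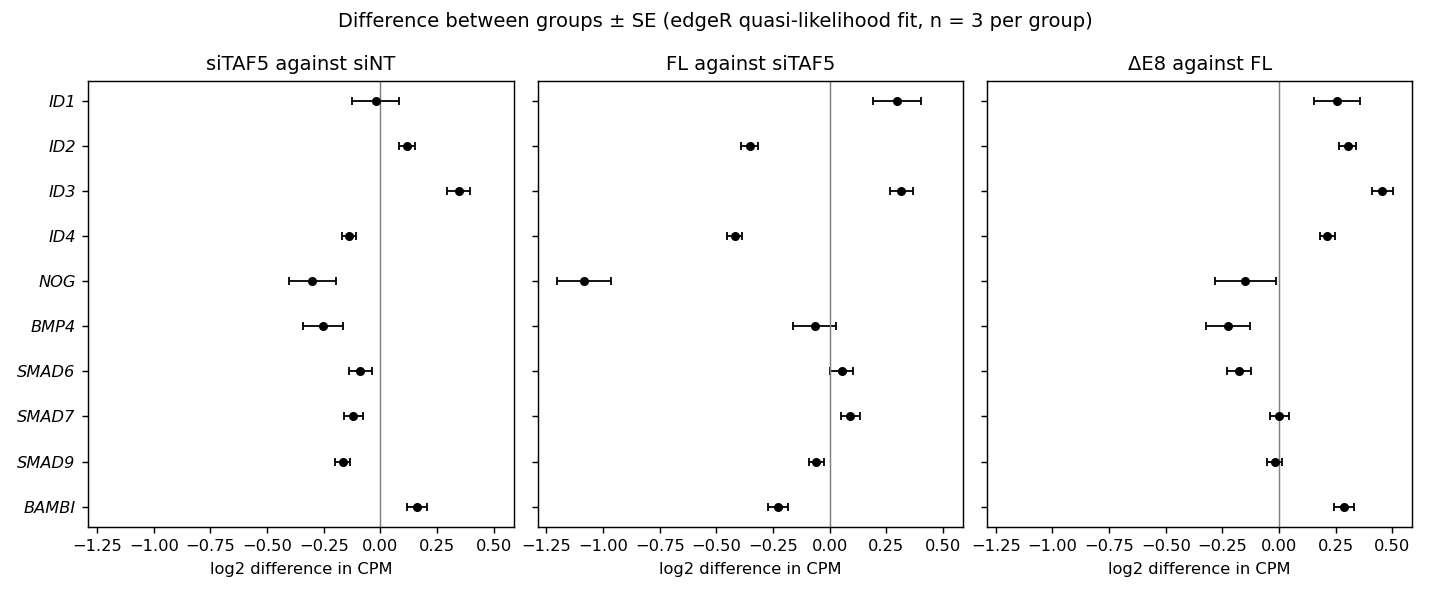
log2 difference in CPM (horizontal axes) of each of the 10 genes in siTAF5 against siNT, FL against siTAF5 and ΔE8 against FL. Points are edgeR estimates and bars are SE from the quasi-likelihood fit of all 12 libraries, 3 per group. ID2, ID4 and BAMBI lie below 0 in FL against siTAF5 and above 0 in ΔE8 against FL, comparisons that share the FL libraries. ID3 lies above 0 in all 3 panels, and NOG lies furthest below 0 in FL against siTAF5, at -1.08.

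Among the ID genes, ID3 (ENSG00000117318, chr1:23557926-23559501, hg38, minus strand) differed between all 4 groups. It had 43.8, 47.1 and 49.6 CPM in ΔE8 libraries, 33.4, 32.9 and 36.0 CPM in FL libraries, 26.8, 26.7 and 28.6 CPM in siTAF5 libraries, and 22.4, 21.6 and 20.7 CPM in siNT libraries. Each group lay wholly above the next in that order. The group means were 217.5% of siNT in ΔE8, 158.3% in FL and 127% in siTAF5. In siTAF5 ID3 was 1.27-fold higher than in siNT (log2 0.35, SE 0.05), in FL 1.24-fold higher than in siTAF5 (log2 0.32, SE 0.05) and in ΔE8 1.37-fold higher than in FL (log2 0.46, SE 0.05), all given as description. ID3 was thus further from its siNT level in FL than in siTAF5, and furthest in ΔE8.

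ID1 (ENSG00000125968, chr20:31605283-31606515, plus strand), the ID gene with the lowest level per exon length, moved less clearly. It had 5.65, 6.29 and 7.36 CPM in ΔE8, 5.13, 5.12 and 5.80 CPM in FL, 4.28, 3.99 and 4.77 CPM in siTAF5, and 4.84, 4.41 and 4.02 CPM in siNT. ΔE8 and FL overlapped, FL lay above siTAF5 and siNT, and siTAF5 and siNT overlapped. In siTAF5 against siNT the log2 difference was -0.02 (95% interval -0.24 to 0.20, edgeR adjusted p = 0.886). In FL it was 1.23-fold higher than in siTAF5 (log2 0.30, SE 0.11, edgeR adjusted p = 0.0250) and 1.21-fold higher than in siNT (log2 0.27, SE 0.10, edgeR adjusted p = 0.0312), in 3 of 3 libraries each time. Against siTAF5 the call was lost without FL replicate 3 (edgeR adjusted p = 0.107), siTAF5 replicate 1 (0.0600) or siTAF5 replicate 2 (0.114), with library totals in place of TMM factors (0.0625) and with DESeq2 (0.0521); over the 13 alternatives the adjusted p ran from 0.0152 to 0.114. Against siNT it was lost without FL replicate 2 (edgeR adjusted p = 0.0520), FL replicate 3 (0.129), siNT replicate 2 (0.0657) or siNT replicate 3 (0.137), with upper-quartile factors (0.0615) and with DESeq2 (0.0770), the adjusted p running from 0.0162 to 0.137. ΔE8 exceeded FL by 0.26 (SE 0.10), siTAF5 by 0.55 (SE 0.10) and siNT by 0.53 (SE 0.10) on the log2 scale.

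ID2 and ID4 shared another pattern, with their lowest level in FL. ID2 (ENSG00000115738, chr2:8678845-8684461, plus strand) had 42.9, 40.5 and 41.8 CPM in ΔE8, 33.5, 33.2 and 34.9 CPM in FL, 41.9, 43.2 and 44.5 CPM in siTAF5, and 38.6, 40.3 and 40.7 CPM in siNT. FL stood apart below the other 3 groups; ΔE8 overlapped both siTAF5 and siNT. In FL ID2 was 1.28-fold lower than in siTAF5 (log2 -0.35, SE 0.04, edgeR adjusted p = 1.23e-07) and lower than in siNT (log2 -0.24, SE 0.04, edgeR adjusted p = 1.63e-05), in 3 of 3 libraries. ΔE8 was 1.23-fold above FL (log2 0.30, SE 0.04). The higher ID2 of siTAF5 against siNT was small, 1.08-fold (log2 0.12, SE 0.04, edgeR adjusted p = 0.0100). That call was lost without siTAF5 replicate 2 (edgeR adjusted p = 0.0529), siTAF5 replicate 3 (0.115) or siNT replicate 1 (0.0504), in a range of 0.00152 to 0.115 over the 13 alternatives. An antisense gene, ID2-AS1, overlaps 38 exonic bases of ID2; its own level was 1.19 to 1.95 CPM, and since no source used here states how the counting treated strand, reads of the pair cannot be told apart over those bases.

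ID4 (ENSG00000172201, chr6:19837370-19842197, plus strand) had the highest level per exon length of the ID genes. It had 112, 115 and 114 CPM in ΔE8, 101, 98.5 and 94.7 CPM in FL, 134, 133 and 127 CPM in siTAF5, and 152, 140 and 141 CPM in siNT. No 2 groups overlapped, and the order was siNT, siTAF5, ΔE8, FL. In siTAF5 ID4 was lower than in siNT (log2 -0.14, SE 0.03, edgeR adjusted p = 0.00116). In FL it was 1.34-fold lower than in siTAF5 (log2 -0.42, SE 0.03, edgeR adjusted p = 2.02e-09) and 1.47-fold lower than in siNT (log2 -0.56, SE 0.03, edgeR adjusted p = 4.45e-11), in 3 of 3 libraries each. ΔE8 was 1.16-fold above FL (log2 0.21, SE 0.03) and 1.27-fold below siNT (log2 -0.34, SE 0.03). The antisense gene AL022068.1 overlaps the span of ID4 and none of its exonic bases.

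Outside the cell, NOG encodes noggin, which binds BMPs and keeps them from their receptors (ENSG00000183691, chr17:56593699-56595611, plus strand). NOG had 2.20, 2.69 and 2.64 CPM in ΔE8, 3.19, 2.96 and 2.04 CPM in FL, 6.22, 6.03 and 5.39 CPM in siTAF5, and 7.16, 7.37 and 7.15 CPM in siNT. Libraries of either rescued group lay below every siTAF5 library, these lay below every siNT library, and ΔE8 and FL overlapped, with the lowest of all 12 values in FL replicate 3. Group means were 34.7% of siNT in ΔE8, 37.8% in FL and 81.3% in siTAF5. As description, NOG was 1.23-fold lower in siTAF5 than in siNT (log2 -0.30, SE 0.10). It was 2.90-fold lower in ΔE8 than in siNT (log2 -1.53, SE 0.12), 2.61-fold lower in FL than in siNT (log2 -1.39, SE 0.12) and, set against FL, 1.11-fold lower in ΔE8 (log2 -0.15, SE 0.13). The step between ΔE8 and FL was about the size of its error, and without 1 library at a time and under the other settings it ran from -0.31 to 0.00.

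BMP4, a ligand of the pathway (ENSG00000125378, chr14:53949736-53958761, minus strand), had the lowest level per exon length of the 10 genes in every group, and its CPM was lowest in ΔE8. It had 3.36, 3.35 and 3.25 CPM in ΔE8, 3.88, 4.20 and 3.60 CPM in FL, 4.26, 4.17 and 3.81 CPM in siTAF5, and 4.93, 4.43 and 5.21 CPM in siNT. ΔE8 lay below the other groups and siNT above them, while FL and siTAF5 overlapped. In siTAF5 BMP4 was 1.19-fold lower than in siNT (log2 -0.25, SE 0.09, edgeR adjusted p = 0.0223). The call was lost without siTAF5 replicate 3 (edgeR adjusted p = 0.0818), siNT replicate 1 (0.0519) or siNT replicate 3 (0.109) and with DESeq2 (0.0750), in a range of 0.0101 to 0.109. In FL it was lower than in siNT (log2 -0.32, SE 0.09, edgeR adjusted p = 0.00510), and against siTAF5 the log2 difference was -0.07 (95% interval -0.26 to 0.13, edgeR adjusted p = 0.589). ΔE8 was 1.17-fold below FL (log2 -0.22, SE 0.10) and 1.46-fold below siNT (log2 -0.55, SE 0.09).

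Inside the cell, the inhibitory SMADs had the narrowest spans of group means among the 10 genes, 86.4% to 100% of siNT for SMAD6 and 92.0% to 100% for SMAD7. SMAD6 (ENSG00000137834, chr15:66702236-66782849, plus strand), whose product acts mainly on the BMP branch, had 16.0, 15.6 and 17.3 CPM in ΔE8, 19.2, 18.4 and 17.6 CPM in FL, 18.4, 16.9 and 18.1 CPM in siTAF5, and 19.0, 19.6 and 18.2 CPM in siNT. ΔE8 lay below FL and siNT and overlapped siTAF5; FL, siTAF5 and siNT overlapped in turn. SMAD6 passed in none of the 3 comparisons in which it was tested: the log2 difference was -0.09 in siTAF5 against siNT (95% interval -0.20 to 0.02, edgeR adjusted p = 0.155), 0.05 in FL against siTAF5 (-0.06 to 0.16, adjusted p = 0.432) and -0.04 in FL against siNT (-0.14 to 0.07, adjusted p = 0.576). ΔE8 was 1.13-fold below FL (log2 -0.18, SE 0.05).

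SMAD7 (ENSG00000101665, chr18:48919853-48950965, minus strand), which restrains both the BMP and the TGF-beta branch, had 22.0, 22.4 and 23.2 CPM in ΔE8, 22.2, 22.6 and 22.9 CPM in FL, 21.4, 20.6 and 21.5 CPM in siTAF5, and 23.9, 22.9 and 22.3 CPM in siNT. Only siTAF5 lay apart, below the other 3 groups. It was 1.09-fold lower in siTAF5 than in siNT (log2 -0.12, SE 0.04, edgeR adjusted p = 0.0196), a call lost without siTAF5 replicate 2 (edgeR adjusted p = 0.0519) or siNT replicate 1 (0.0918) and with library totals (0.0909), in a range of 0.0104 to 0.0918. FL against siTAF5 gave log2 0.09 (95% interval 0.00 to 0.18, edgeR adjusted p = 0.0856) and FL against siNT -0.03 (95% interval -0.12 to 0.06, edgeR adjusted p = 0.565). Between ΔE8 and FL the log2 difference was 0.00 (SE 0.04), with overlapping libraries.

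SMAD9 (ENSG00000120693, chr13:36844831-36920765, minus strand), a receptor-regulated SMAD of the BMP branch whose RNA that branch raises, had 40.9, 40.5 and 39.4 CPM in ΔE8, 42.2, 40.6 and 39.5 CPM in FL, 42.5, 42.7 and 42.5 CPM in siTAF5, and 48.3, 48.5 and 46.4 CPM in siNT. Every library with the TAF5 siRNA, rescued or not, lay below the siNT libraries. SMAD9 was 1.12-fold lower in siTAF5 than in siNT (log2 -0.17, SE 0.03, edgeR adjusted p = 0.000261) and 1.17-fold lower in FL than in siNT (log2 -0.23, SE 0.03, edgeR adjusted p = 8.19e-06), in 3 of 3 libraries each. FL against siTAF5 gave -0.06 (95% interval -0.13 to 0.01, edgeR adjusted p = 0.157); with library totals in place of TMM factors the difference was -0.11 and passed (edgeR adjusted p = 0.0105, the lowest in a range that reached 0.442). ΔE8 and FL overlapped (log2 -0.02, SE 0.03).

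BAMBI (ENSG00000095739, chr10:28677510-28682932, plus strand), which competes with type I receptors, had 32.9, 30.3 and 32.7 CPM in ΔE8, 26.5, 25.6 and 26.4 CPM in FL, 30.5, 29.1 and 32.4 CPM in siTAF5, and 26.8, 28.5 and 26.9 CPM in siNT. ΔE8 and siTAF5 overlapped at the higher level, and FL lay just below siNT. In siTAF5 BAMBI was 1.12-fold higher than in siNT (log2 0.16, SE 0.04, edgeR adjusted p = 0.00483). Without siTAF5 replicate 3 the call was lost (edgeR adjusted p = 0.0801, range over the alternatives 0.00105 to 0.0801). In FL it was 1.17-fold lower than in siTAF5 (log2 -0.23, SE 0.05, edgeR adjusted p = 0.000298), and against siNT the difference was -0.07 (95% interval -0.16 to 0.03, edgeR adjusted p = 0.223). BAMBI was thus the feedback gene whose FL level was near its siNT level while its siTAF5 level was above it. ΔE8 was 1.22-fold above FL (log2 0.29, SE 0.05).

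Per length of exon, the 10 genes spanned a wide range of levels. In siNT ID4 stood first at 61.7 CPM per kb, followed by ID2 at 18.1, ID3 at 11.99, BAMBI at 11.8, SMAD9 at 8.34, SMAD7 at 4.58, NOG at 3.82, ID1 at 3.59, SMAD6 at 2.21 and BMP4 at 1.58 CPM per kb. ID3 and BAMBI differed by less than their SDs of 0.458 and 0.398 CPM per kb, and NOG and ID1 by less than the ID1 SD of 0.330 CPM per kb. In ΔE8 the order differed at several places, for example ID3, at 26.1 ± 1.64 CPM per kb, stood above ID2, at 18.9 ± 0.550, and NOG, at 1.33 ± 0.142, stood below SMAD6, at 1.91 ± 0.0998 (SD, n = 3). The lengths were unions of exons in GENCODE release 29, whose spans differ from those of the table for 7 of the 10 genes. The end of ID4 differs by 1513 bases. The start of the gene differs by 1087 bases for SMAD7, 293 for ID3 and 168 for BAMBI. Levels per kb of these genes thus depend on the annotation, and the size of that effect was not tested.

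**Figure D3:**
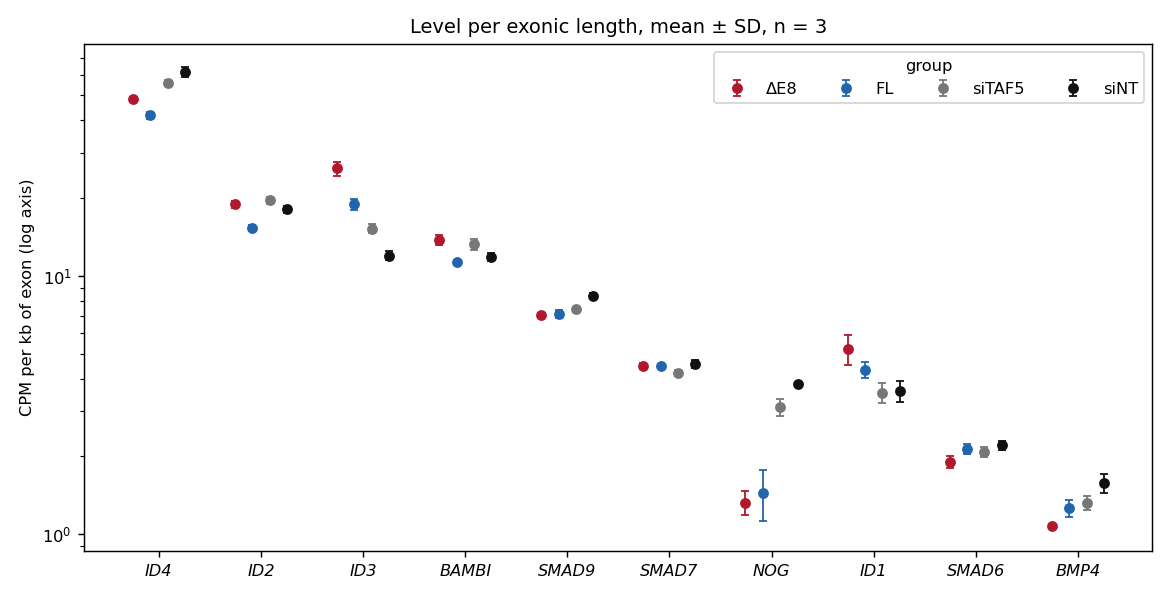
Level of each gene in CPM per kb of exon (vertical log axis) for the 4 groups; points are means and bars SD over 3 libraries, genes ordered by their siNT level. ID4 is highest in all groups, ID3 passes ID2 in ΔE8, at 26.1 against 18.9 CPM per kb, and NOG drops to 1.33 CPM per kb in ΔE8 and 1.44 in FL.

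Some genes elsewhere in the genome had nearly the same pattern over the 12 libraries as ID3 or NOG. Among 12261 genes whose log2 CPM averaged 2 or more, the highest Pearson r of log2 CPM with ID3 belonged to ANXA2 (0.986), MTRF1L (0.983), SMPD1 (0.982), RBM4 (0.982) and SURF4 (0.981). ANXA2, for example, averaged 212 CPM in ΔE8, 195 in FL, 187 in siTAF5 and 172 in siNT. After group means were taken out, r with ID3 was 0.30 to 0.66 for these genes, so their likeness lay mostly in the group means. The genes most like NOG were SMIM10L2A (0.988), PDGFA (0.986), ELMOD1 (0.985), ACBD4 (0.984) and MYC (0.984), with r of 0.71 to 0.82 within groups. MYC averaged 127 CPM in ΔE8, 124 in FL, 221 in siTAF5 and 251 in siNT. These r describe 12 libraries that share 4 group means, with no test.

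Of 85 further genes of the pathway and its neighbour branch, 77 passed the filter and were tested in every comparison, none of them being one of the 10. BMP5, GDF2, HJV, CHRDL2, GREM1 and NODAL had too few counts to be tested, and BMP10 and CER1 are not analysed here. In siTAF5 against siNT 12 of the 77 were higher and 24 lower, beside 49.7% of all genes called, 24.7% higher and 25% lower; the median log2 difference was -0.04, and 0.00 for all genes. In FL against siTAF5 15 were higher and 33 lower (median -0.04, all genes -0.01), beside 48.8% of all genes. In FL against siNT 17 were higher and 39 lower (median -0.15, all genes 0.01), beside 54.6% of all genes. ΔE8 against FL gave 14 higher and 15 lower (median -0.01, all genes -0.01), beside 37% of all genes called, 17.3% higher and 19.7% lower. ΔE8 against siTAF5 gave 10 and 36 (median -0.10, all genes -0.01), beside 40.6% of all genes, 20% higher and 20.6% lower. ΔE8 against siNT gave 19 and 39 (median -0.09, all genes 0.00), beside 62.2% of all genes, 30.8% higher and 31.4% lower. In 5 of the 6 comparisons the lower calls outnumbered the higher ones at least by a factor of 2, and ΔE8 against FL was the exception. The comparisons share libraries, so they are not separate results, and this split was not tested under other settings.

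Among the other secreted antagonists, 11 of 14 were tested. In siTAF5 against siNT 1 was higher and 5 lower, and in ΔE8 against FL none was higher and 5 were lower, with medians of -0.12 and -0.13 beside 0.00 and -0.01 for all genes. Of all genes 49.7% and 37% were called in these comparisons. CHRD, which encodes the antagonist chordin, averaged 4.53 ± 0.219 CPM in siTAF5 and 7.83 ± 0.238 CPM in siNT (SD, n = 3 each; log2 -0.79, edgeR adjusted p = 9.88e-08), and FL lay 1.29-fold below siTAF5 (log2 -0.37, edgeR adjusted p = 0.00191).

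Of 9 ligand genes tested, 4 were lower and none higher in siTAF5 than in siNT (median 0.00, all genes 0.00). In FL against siTAF5, 4 were lower and none higher (median -0.19, all genes -0.01). The shares of all genes called were 49.7% and 48.8%. For 1 of the 4 ligand genes lower in siTAF5 than in siNT, the call (edgeR adjusted p = 0.0453) was lost under 10 of the 13 alternatives. BMP6 averaged 35.2 ± 1.497 CPM in FL and 43.7 ± 2.05 CPM in siTAF5 (log2 -0.31, edgeR adjusted p = 6.41e-05), and siTAF5 in turn was 1.37-fold below siNT, at 59.7 ± 4.49 CPM (log2 -0.45, edgeR adjusted p = 3.26e-07; SD, n = 3). GDF7 was lower in ΔE8 than in FL, at 12.3 ± 0.654 and 15.5 ± 1.27 CPM (log2 -0.33, edgeR adjusted p = 0.000169). Of 10 receptor and co-receptor genes tested, 2 were higher and 4 lower in siTAF5 than in siNT, and 2 each way in ΔE8 against FL, beside 49.7% and 37% of all genes. BMPR2, a type II receptor of the BMPs, was higher in ΔE8 than in FL (84.6 ± 4.58 and 72.1 ± 3.03 CPM, log2 0.23, edgeR adjusted p = 0.000118) and in siTAF5 than in siNT (79.5 ± 1.98 and 66.4 ± 3.05 CPM, log2 0.26, edgeR adjusted p = 1.85e-05). ACVRL1, a type I receptor best known from endothelium, was lower in ΔE8 than in FL (0.648 ± 0.115 and 1.44 ± 0.123 CPM, log2 -1.13, edgeR adjusted p = 0.000295).

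Among the intracellular dampers other than SMAD6 and SMAD7, 6 of 11 were higher and 1 was lower in ΔE8 than in FL (median 0.09, all genes -0.01), while 3 were higher and 6 lower in FL than in siTAF5 (median -0.18, all genes -0.01). Of all genes 37% and 48.8% were called there. Both comparisons use the FL libraries, so a shift in those libraries moves the comparisons in opposite directions. TOB2, of an antiproliferative family whose relative TOB1 dampens BMP signalling in mouse bone cells, had the clearest change: 137 ± 2.48 CPM in ΔE8 and 103 ± 3.03 CPM in FL (log2 0.40, edgeR adjusted p = 7.42e-10), and 137 ± 0.141 CPM in siTAF5 and 94.5 ± 2.04 CPM in siNT (log2 0.54, edgeR adjusted p = 3.96e-12; SD, n = 3). TOB1 was also higher in ΔE8 than in FL, at 55.8 ± 0.341 and 47.6 ± 1.37 CPM (log2 0.23, edgeR adjusted p = 2.17e-05), and in siTAF5 than in siNT, at 58.7 ± 2.37 and 52.9 ± 1.01 CPM (log2 0.15, edgeR adjusted p = 0.000638). Both genes were thus higher in ΔE8 than in FL and in siTAF5 than in siNT.

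Of 12 other BMP target genes, 3 were higher and 2 lower in siTAF5 than in siNT, 3 higher and 5 lower in FL than in siTAF5, and 1 higher and 2 lower in ΔE8 than in FL. The shares over all genes were 49.7%, 48.8% and 37%. The higher one in ΔE8 was JUNB, an AP-1 subunit, at 39.3 ± 1.21 CPM in ΔE8 and 23.8 ± 0.705 CPM in FL (log2 0.72, edgeR adjusted p = 1.62e-09); it was 1.53-fold higher in siTAF5 than in siNT (53.8 ± 1.97 and 35.1 ± 2.89 CPM, log2 0.62, edgeR adjusted p = 1.38e-09). HEY1, a transcriptional repressor shared with Notch signalling, went the other way, at 17.04 ± 0.412 CPM in ΔE8 and 24.4 ± 0.619 CPM in FL (log2 -0.52, edgeR adjusted p = 1.55e-08), and at 18.8 ± 0.825 CPM in siTAF5 and 27.1 ± 0.526 CPM in siNT (log2 -0.53, edgeR adjusted p = 3.15e-09). JUNB and HEY1 thus moved in opposite directions in both comparisons. MSX2 was among the 3 higher in FL than in siTAF5 (log2 0.28, edgeR adjusted p = 7.05e-05), where 5 were lower.

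Of the 3 E proteins that ID proteins bind, 1 was higher and 1 lower in siTAF5 than in siNT, and likewise in FL against siTAF5. Of all genes 49.7% and 48.8% were called in these comparisons. The higher one in FL was TCF4 (log2 0.08, edgeR adjusted p = 0.0368), a call lost under 7 of the 13 alternatives (edgeR adjusted p up to 0.369). TCF4 was the higher one in siTAF5, at 63.4 ± 1.67 CPM against 58.9 ± 1.64 CPM in siNT (log2 0.11, edgeR adjusted p = 0.00806), a call lost without siTAF5 replicate 2 (edgeR adjusted p = 0.0647) or siTAF5 replicate 3 (0.0815), in a range of 0.000867 to 0.0815. TCF3 fell in siTAF5, to 225 ± 4.63 CPM against 256 ± 10.3 CPM in siNT (log2 -0.19, edgeR adjusted p = 7.10e-05), and was lower again in FL, at 206 ± 8.83 CPM (log2 -0.13 against siTAF5, edgeR adjusted p = 0.00285; SD, n = 3). In the TGF-beta and activin branch, 4 of 18 genes tested were higher and 2 lower in ΔE8 than in FL, and 2 higher and 5 lower in siTAF5 than in siNT, beside 37% and 49.7% of all genes. TGFB1, a ligand of that branch, was lower in ΔE8 than in FL (28.8 ± 0.220 and 37.1 ± 3.16 CPM, log2 -0.37, edgeR adjusted p = 5.41e-05) and in siTAF5 than in siNT (36.6 ± 1.39 and 52.9 ± 4.48 CPM, log2 -0.53, edgeR adjusted p = 1.22e-07). INHBA, a subunit of activin, was 3.01-fold higher in FL than in siTAF5, at 2.68 ± 0.204 and 0.896 ± 0.166 CPM (log2 1.59, edgeR adjusted p = 2.03e-07).

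**Figure D4:**
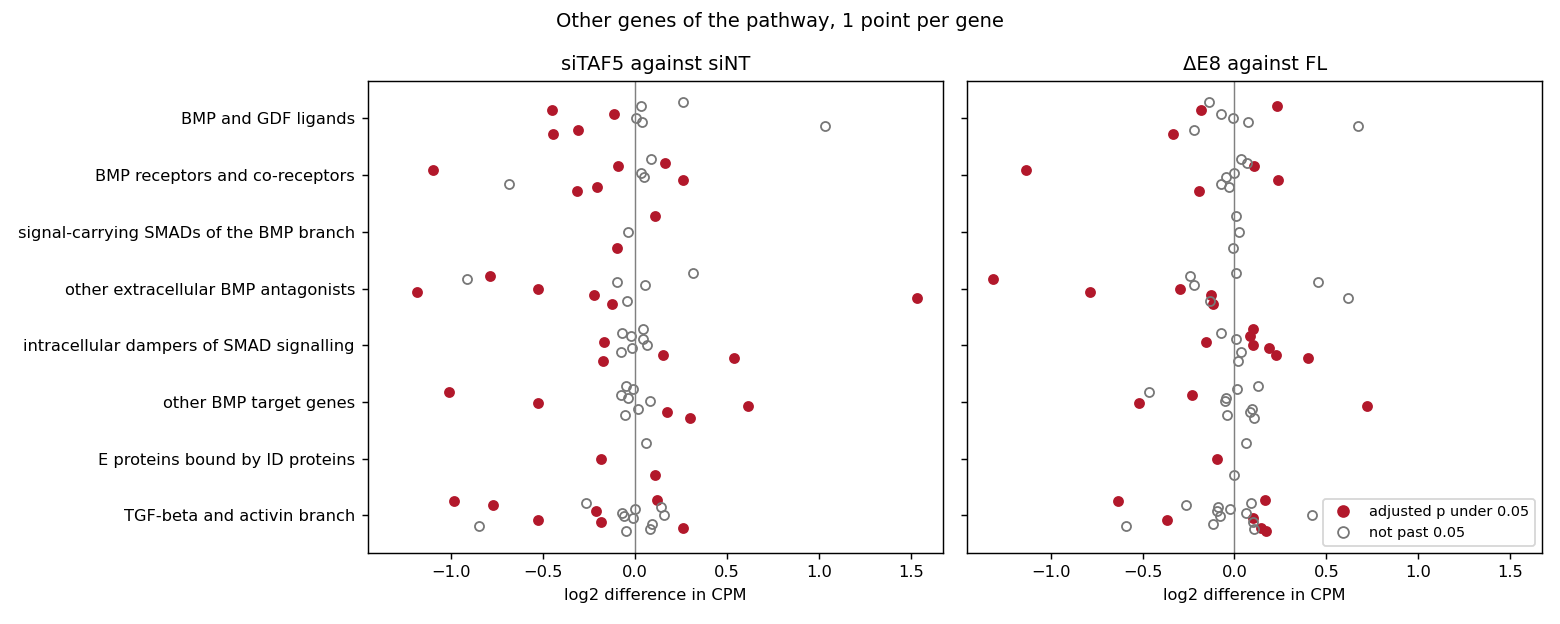
log2 difference in CPM (horizontal axes) of the 77 further pathway genes tested, 1 point each, by list, for siTAF5 against siNT (left) and ΔE8 against FL (right); filled points passed an edgeR adjusted p of 0.05. The antagonists called in ΔE8 against FL, 5 of 11, all lie below 0, and 6 of the 7 dampers called there lie above 0. Of all genes 37% were called in that comparison, 17.3% higher and 19.7% lower.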

How the data were processed

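Polyadenylated RNA of 12 HEK293 Flp-In libraries, 3 in each of 4 groups taken from the sample titles, was sequenced from a stranded kit, per the labels' protocols. The authors deposited 1 table of estimated counts per gene, made from the reads and not normalized, as its values show: 46.5% of entries were not whole. Per the submitters' processing notes, cutadapt 1.18, STAR 2.7.0f, Partek 10.0.23.0531, DESeq2 and the build hg38 were used; no source used here states their roles, the annotation or how counting treated strand.

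The planned tests assumed whole counts, so the estimated counts were rounded, which changed no library total by over 91.3. R 4.3.3 with edgeR 4.0.16 was used: filterByExpr with a minimum count of 10 left 19424 of 32010 genes, libraries were scaled by TMM, and the 12 libraries entered 1 quasi-likelihood fit with a mean per group and no replicate block. Tests were two-sided, Benjamini-Hochberg adjusted over the 19424 genes, with a threshold of 0.05. The SE is the size of the log2 difference divided by the square root of F. Levels are CPM as mean and SD over 3 libraries, which limits their precision, and changes are relative to most genes. Replicate libraries differed by more than counting error, with a chi-square per degree of freedom of 2.61 to 5.16, so none was counted as a repeat.

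The members and the pathway lists were chosen with earlier results of these data known. Members have no p in ΔE8 comparisons, nor ID3 and NOG in any; a planned test of these 2 in siTAF5 against siNT was dropped, since siNT or siTAF5 libraries may have served to choose them. Named pathway genes came from the 4 smallest adjusted p per list and comparison (1 gene is not reported here), and genes most like ID3 and NOG were the first 5 by Pearson r. Alternatives were other scalings, no filter, DESeq2 1.42.0, a replicate block, the 2 groups compared alone and each library left out in turn.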

Additional observations from a re-analysis of the deposited data

How the results depend on the processing

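Of 241 alternative values for counts and medians, 238 stayed within their limits. The number of the 8 genes tested that were called in siTAF5 against siNT was 6, and ran from 3 to 6 when 1 library was left out; the cause was not tested. The median of the 10 genes in ΔE8 against siTAF5 was -0.0651, and -0.0913 with upper-quartile factors, which move all genes together. ID1 in siTAF5 against siNT, never called, changed sign to 0.0118 with library totals, and ran from -0.111 to 0.0445 with 1 library left out, 0.0233 without siTAF5 replicate 2 and 0.0445 without siNT replicate 1. Among single values of the 10 genes 749 of 780 alternatives were the same, and 22 lost a call, as given in the report; among further pathway genes 81 of 2117 lost a call. With library totals the calls over all genes in FL against siTAF5 split into 3748 higher and 5788 lower, in place of 4745 and 4732. With a replicate block the genes of the 10 called were again 6 in siTAF5 against siNT, 4 in FL against siTAF5 and 5 in FL against siNT. The numbers do not pair the libraries by any label. After group means were taken out of log2 CPM, same-numbered libraries of different groups correlated by -0.05 to 0.05 over 18 pairs. On the same values, 6 of 12 libraries had a library of their own number as their closest match in another group. The block moved no count of calls by over 1.5 times. At these depths the 3 of the 10 genes with the fewest counts, BMP4, NOG and ID1, had the largest errors.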
